A study of Mus musculus with 4 samples.

Results

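The genes described here are 8 transcription factor genes that define the hepatocyte, Hnf4a, Foxa1, Foxa2, Foxa3, Cebpa, Cebpb, Onecut1 and Prox1. Every accessible region that lay inside 1 of these genes or within 50 kb of either of its ends was taken, from lists of ATAC-seq peaks of 4 mouse liver libraries. Peaks of the libraries that overlapped or touched were joined into regions, which gave 43 regions at the 8 loci, of 33215 regions within 50 kb of any protein-coding gene and 38853 in all. In ATAC-seq the Tn5 transposase inserts sequencing adaptors into open DNA, and a peak is a window, here nearly always 400 bp long, where the caller found more insertions than its threshold asked for. The libraries came from 20 mg of frozen liver each, from 11-week-old females of the FVB background fed standard chow. Wild-type mice (WT) gave 2 libraries, WT 1 and WT 2, and 2 came from mice labelled PA, which are Pcca-/- with a hypomorphic form, A138T, of this subunit of propionyl-CoA carboxylase (PA 1 and PA 2). The sources used here do not give how the A138T form is expressed or whether livers were pooled. The series calls the replicates biological.

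Hepatocyte identity is held by a small set of factors that bind each other's genes as well as those of liver enzymes and plasma proteins. HNF4A is a nuclear receptor needed for the mature hepatocyte. The FOXA proteins are forkhead factors that can bind their sites in closed chromatin and open them, C/EBP alpha and C/EBP beta are leucine zipper factors of metabolic and acute phase genes, ONECUT1 (HNF6) is a cut-homeodomain factor of liver and bile duct development, and PROX1 is a homeodomain factor that acts as a co-repressor of HNF4A.

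Start sites came from the RefSeq promoter table of GRCm38.p6, which held 12 start sequences for the 8 genes, each running from 250 bases before to 50 bases after a start. Of these, 6 are printed because the results turn on them: both Hnf4a starts, which differed in their calls, the Foxa1 start, which no library called, and the starts of Cebpa (called in all 4 libraries), Cebpb (called in 3) and Onecut1 (called in both WT libraries alone). They are read 5′ to 3′ on the strand of the gene, and capitals mark a match on either strand to the ONECUT, forkhead or TATA box letters, which are spelled out after the sequences.
Hnf4a upstream start, chr2:163506607-163506906, plus strand: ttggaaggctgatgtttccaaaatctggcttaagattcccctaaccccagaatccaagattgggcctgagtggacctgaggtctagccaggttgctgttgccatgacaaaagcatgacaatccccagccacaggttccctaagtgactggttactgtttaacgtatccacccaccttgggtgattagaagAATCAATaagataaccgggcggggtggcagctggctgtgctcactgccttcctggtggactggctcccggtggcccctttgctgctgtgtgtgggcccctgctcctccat
Hnf4a downstream start, chr2:163546905-163547204, plus strand: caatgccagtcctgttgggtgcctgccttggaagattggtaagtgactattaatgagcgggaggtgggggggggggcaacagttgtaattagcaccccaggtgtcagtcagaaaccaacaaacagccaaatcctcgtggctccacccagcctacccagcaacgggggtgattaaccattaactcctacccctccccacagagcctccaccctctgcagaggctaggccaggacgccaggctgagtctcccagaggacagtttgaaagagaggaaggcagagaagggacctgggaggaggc
Foxa1 start, chr12:57546062-57546361, minus strand: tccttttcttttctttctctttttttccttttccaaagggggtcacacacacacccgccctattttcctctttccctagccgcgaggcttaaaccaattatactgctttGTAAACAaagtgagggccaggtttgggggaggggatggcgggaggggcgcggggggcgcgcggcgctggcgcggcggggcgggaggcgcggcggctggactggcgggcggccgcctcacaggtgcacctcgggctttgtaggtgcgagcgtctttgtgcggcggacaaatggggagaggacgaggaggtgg
Cebpa start, chr7:35119043-35119342, plus strand: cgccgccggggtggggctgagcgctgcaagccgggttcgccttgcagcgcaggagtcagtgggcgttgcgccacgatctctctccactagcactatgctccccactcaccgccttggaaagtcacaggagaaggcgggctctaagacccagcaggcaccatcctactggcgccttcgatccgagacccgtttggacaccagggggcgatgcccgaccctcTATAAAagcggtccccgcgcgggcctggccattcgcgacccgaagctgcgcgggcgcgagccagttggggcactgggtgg
Cebpb start, chr2:167688665-167688964, plus strand: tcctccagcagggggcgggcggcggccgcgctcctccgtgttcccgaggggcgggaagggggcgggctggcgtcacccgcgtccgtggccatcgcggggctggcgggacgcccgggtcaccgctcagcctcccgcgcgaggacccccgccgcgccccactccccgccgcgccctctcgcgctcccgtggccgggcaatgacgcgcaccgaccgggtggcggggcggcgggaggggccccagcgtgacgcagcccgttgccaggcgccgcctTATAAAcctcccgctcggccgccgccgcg
Onecut1 start, chr9:74861671-74861970, plus strand: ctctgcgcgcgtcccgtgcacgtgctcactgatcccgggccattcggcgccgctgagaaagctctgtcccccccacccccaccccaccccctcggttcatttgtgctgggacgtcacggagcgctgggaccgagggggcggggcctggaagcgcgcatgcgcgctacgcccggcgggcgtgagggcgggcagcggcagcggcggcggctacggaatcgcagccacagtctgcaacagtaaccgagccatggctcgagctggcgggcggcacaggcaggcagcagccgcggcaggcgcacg

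The ONECUT letters AATCAAT stood 60 bases before the upstream Hnf4a start and, in a sequence not printed, before the first Foxa2 start. Over the start sequences of all protein-coding genes 2.46% held them, and 2 of the 12 of these genes did. The forkhead letters TGTTTAC were in the Foxa1 sequence alone among the 12, against 3.03% of all. The TATA box letters TATAAA, added after the sequences were seen, were in 5 of the 12, against 12.7% of all. They stood at -30 bases from the start of Cebpa, -36 from that of Foxa3 and -34 from a Prox1 start. At Cebpb they stood at 21 bases, past the start, and at a Foxa2 start at -208. The Prox1 and Foxa2 matches were on the other strand. None of the 12 held the HNF4 letters CAAAGTCCA (0.457% of all) or the C/EBP letters TTGCNNAA (10.3%). Both strands were searched. These are matches of letters, not measured binding. The start sequences of Cebpb and Onecut1 were rich in G and C, at 80.7% and 73.0%, against 67.3% for Cebpa and 54.0% and 57.3% for the upstream and downstream starts of Hnf4a.

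Of the 43 regions, 25 were called in all 4 libraries, which is 58.1% (exact Clopper-Pearson 95% interval 42.1 to 73.0) against 47.3% of all regions near protein-coding genes. WT-only regions, those in WT 1 and WT 2 and absent from the PA lists, numbered 2, at the start of Onecut1 and downstream of Cebpa. Their share was 4.65% (95% interval 0.568 to 15.8), and the background of 1.92% lies inside this interval. PA-only regions, with the opposite calls, numbered 0 (background 3.24%). A limit of 3 counts allows a share of up to 6.98%, and the exact 95% interval reaches 8.22%. Such counts rest on single libraries. WT-only regions numbered 8 without PA 2 and 4 without WT 2, and PA-only regions 3 without PA 1 and 2 without WT 1, each under the looser condition that leaving out a library makes. With 2 libraries a group there are 3 ways to split the libraries into pairs, too few for an exact permutation test to reach any usual threshold, so no test was run on the genotypes.

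**Figure D1:**
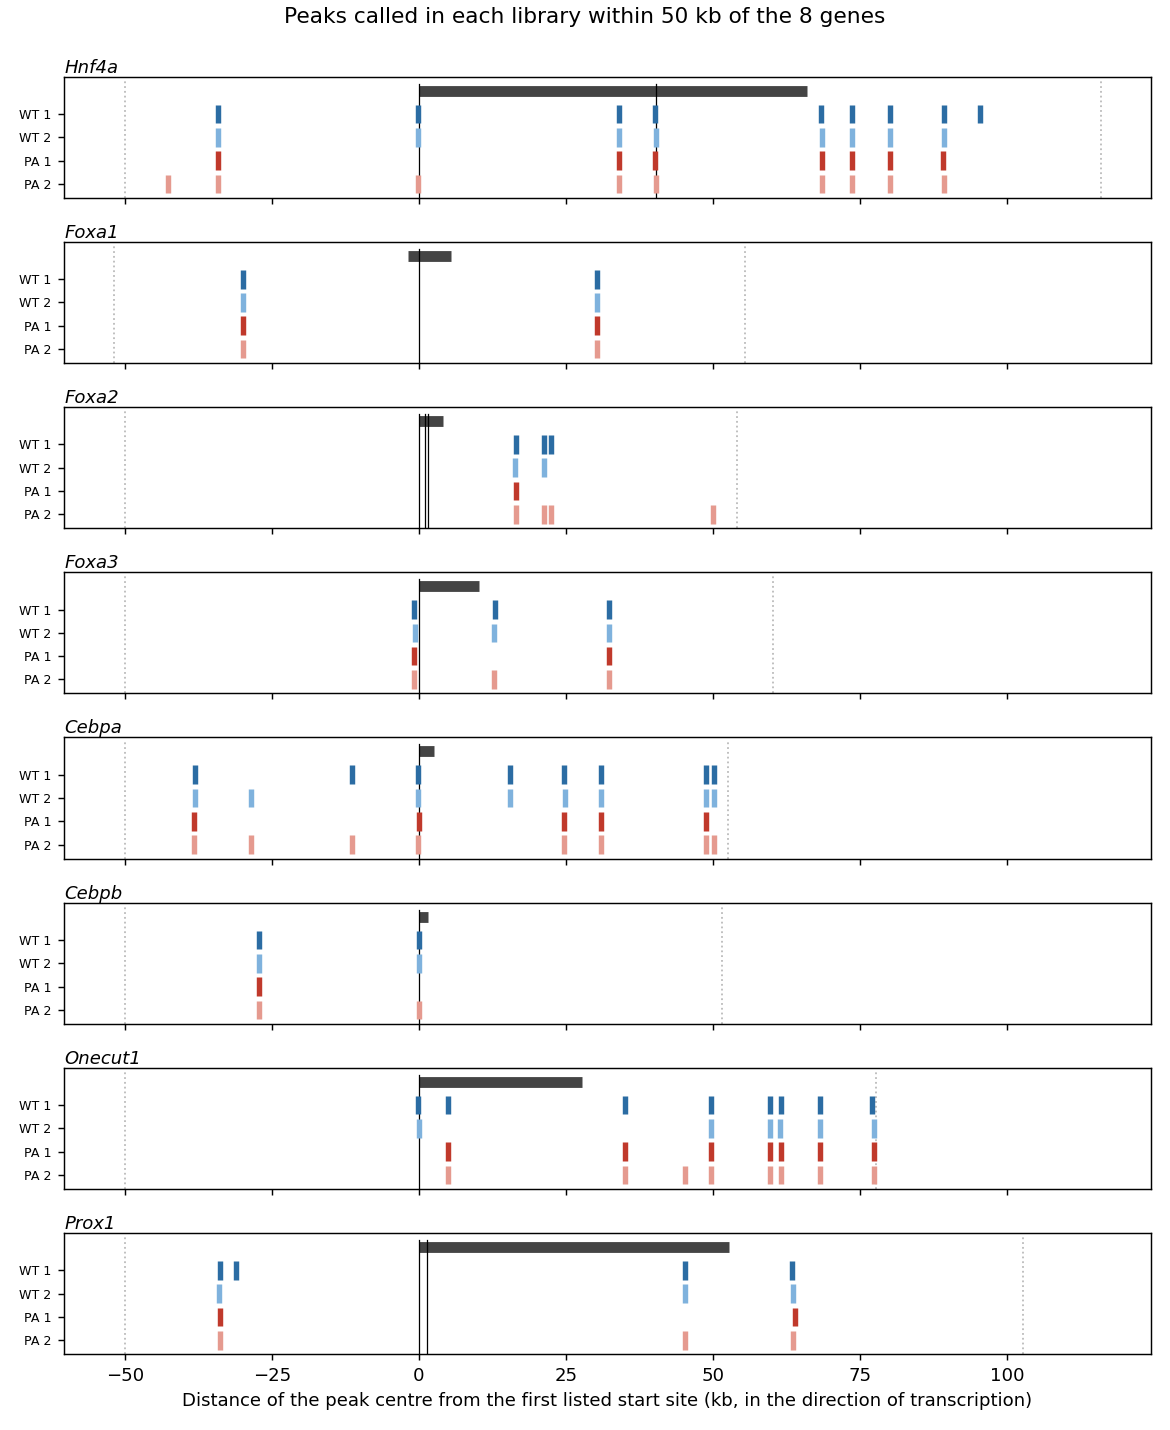
Peak calls within 50 kb of each gene. Each tick is a peak centre of the library named on the left, plotted against its distance in kb from the first listed start site in the direction of transcription; the grey bar is the gene, black lines are listed start sites and dotted lines the edges of the window. The start of Cebpa has a tick in all 4 libraries, that of Cebpb in all but PA 1, that of Onecut1 in WT 1 and WT 2 only, and those of Foxa1, Foxa2 and Prox1 in none.

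The windows were unevenly filled. Hnf4a had 10 regions, Cebpa and Onecut1 9 each, Foxa2 and Prox1 4 each, Foxa3 3, and Foxa1 and Cebpb 2 each. The median was 4, as over all 21631 protein-coding genes, and the median number called in all 4 libraries was 2 in both. Only 3.27% of protein-coding genes had as many regions in their window as Hnf4a or more, and 5.52% as many as Cebpa or Onecut1, while 74.6% had as many as Foxa1 or Cebpb. These shares take no account of window width, which ran from 101518 bp at Cebpb to 166097 bp at Hnf4a. By regions per unit of width the order was Cebpa, Onecut1, Hnf4a, Foxa2, Foxa3, Prox1, Cebpb and Foxa1. Of the 43 regions, 8 overlapped the gene and 5 a listed start. Of the 25 called in all 4 libraries, 21 were over 10 kb from any listed start of the gene. The windows themselves lie mostly outside the genes, with 2636 bp of gene in the 102636 bp of Cebpa and 66097 bp in the 166097 bp of Hnf4a. The same shares over all protein-coding genes were not computed, so these counts show no trait of the 8 genes. The window edge cut between a Onecut1 region 49218 bp from the gene, inside, and a Foxa3 region 52362 bp away, outside.

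**Figure D2:**
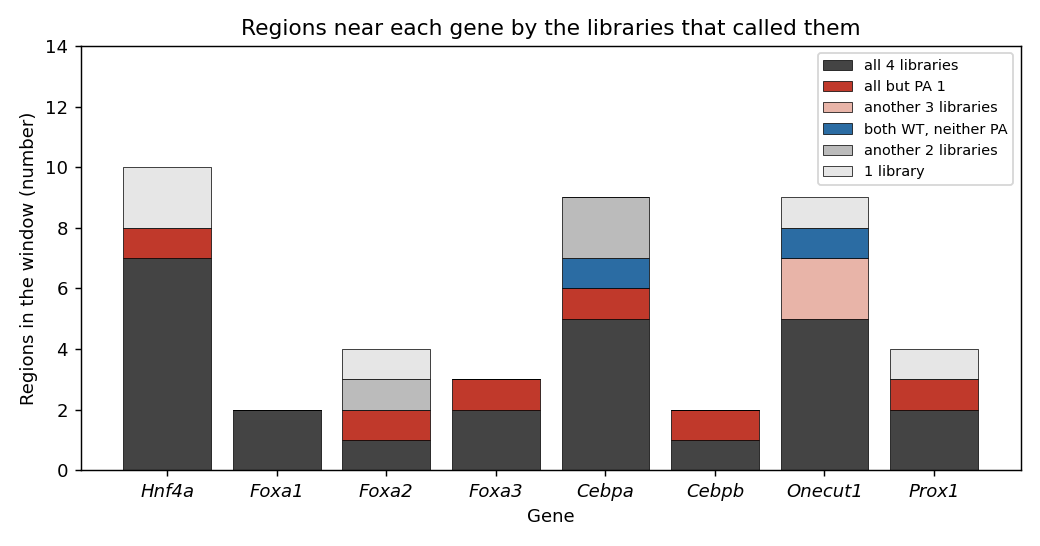
Number of regions in the window of each gene, stacked by the libraries that called them. Hnf4a has 7 regions in all 4 libraries and Cebpa and Onecut1 have 5 each, and a region called in all libraries but PA 1 (red) is seen at every gene except Foxa1 and Onecut1.

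PA 1 had the fewest calls at these loci. WT 1 had 39 peaks in the windows, WT 2 34, PA 1 27 and PA 2 39. The WT mean was 36.5 ± 3.54 (SD, n = 2) and the PA mean 33.0 ± 8.49 (SD, n = 2). The difference of -3.5 is within the SD of the PA libraries and turns to 2.5 without PA 1. PA 1 called 62.8% of the 43 regions, against 67.6% of all regions near genes. The other libraries called more of the 43 than of all regions: WT 1 90.7% against 69.0%, WT 2 79.1% against 67.8%, and PA 2 90.7% against 77.5%. Of the 8 regions called in exactly 3 libraries, 6 were missing in PA 1 and 2 in WT 2. Regions missing in PA 1 alone were thus 14% of the 43, against a background of 5.64%, and those missing in WT 2 alone 4.65% against 2.78%. In the series as a whole PA 1 was also the library most often missing from regions of 3 libraries, in 43.3% of them, against 25% for WT 1, 21.4% for WT 2 and 10.3% for PA 2. The PA 1 list was the shortest, but by little: 25683 peaks against 26280, 25941 and 29765 in WT 1, WT 2 and PA 2. Sequencing depth is not given in the lists, and its part in the missing PA 1 calls was not tested.

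**Figure D3:**
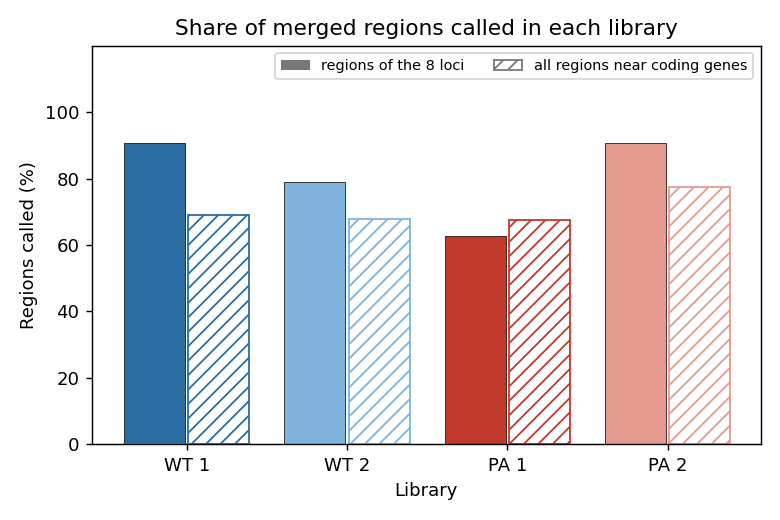
Share of merged regions called in each library, in percent, for the 43 regions of the 8 loci (filled bars) and for all 33215 regions within 50 kb of a protein-coding gene (hatched bars). PA 1 is the only library whose filled bar, at 62.8%, is below its hatched bar, at 67.6%.

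At listed start sites the 8 genes fell into several classes. A peak within 1 kb of a start was called in all 4 libraries at Hnf4a, Foxa3 and Cebpa, 3 of 8 against 44.2% of the 17274 protein-coding genes with a listed start. No library had such a peak at Foxa1, Foxa2 and Prox1, against 46% of genes. Cebpb had it in every library but PA 1, a pattern of 1.19% of genes, and Onecut1 in the WT libraries alone, a pattern of 0.457% of genes. The pattern of both PA libraries alone was seen at 0 of the 8, against 0.643% of genes. A missing call says that no window passed the caller's threshold, not that the site was closed. In whole liver, open chromatin in fewer cells and less open chromatin per cell cannot be told apart.

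Hnf4a is transcribed from an upstream promoter, known as P2 and used mainly in the fetal liver and outside it, and from a downstream promoter, P1, that serves the adult liver. The listed starts lie 40298 bp apart. The peak at the downstream start (chr2:163546887-163547330) was called in all 4 libraries, at 23.8% of the lines of the WT 1 list counted from its top, 24.2% of WT 2, 36.4% of PA 1 and 19.1% of PA 2. The sources used here do not give the order of the lines, so these places only describe where a peak stands in its own list. The peak at the upstream start (chr2:163506513-163506948) stood at 83.9% in WT 1, 75% in WT 2 and 60.1% in PA 2 and was not called in PA 1. In each of the 3 libraries with both peaks the downstream start thus stood nearer the top of the list.

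The Hnf4a region with the smallest mean place was neither start but a region inside the gene, 6126 bp before the downstream start (chr2:163540612-163541029). Its places were 7.72% (WT 1), 9.50% (WT 2), 17.3% (PA 1) and 7.21% (PA 2), and a start of the antisense RNA Hnf4aos is listed within 1 kb of it. Past the end of the gene, 4 regions at 2225, 7410, 13818 and 22983 bp from it were each called in all 4 libraries. The last of these is nearer to Ttpal, a neighbouring gene, than to Hnf4a. A region at the start of Fitm2, whose protein acts in lipid droplet formation, was also in all 4 libraries. No region of the Hnf4a window was restricted to a genotype.

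The forkhead genes differed from Hnf4a in that none of their own starts was overlapped by a peak. Foxa1 had 2 regions, 24545 bp past the lower end of the gene (chr12:57515637-57516083) and 27866 bp beyond its upper end inside Ttc6 (chr12:57575895-57576307). Both were called in all 4 libraries but far down the lists. The first stood at 69.4% and 82.4% in WT 1 and WT 2 and at 95.6% and 72.1% in PA 1 and PA 2. The second stood at 77.3%, 95.8%, 81.5% and 90.5% in the same order. The nearest peak of any library was 29784 bp from the Foxa1 start.

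At Foxa2 all 4 regions lay past the 3′ end of the gene, over the long noncoding RNA gene 9030622O22Rik. Only the nearest, 12140 bp from the gene (chr2:148030264-148030737), was called in all 4 libraries, at 62.8% and 44.7% in WT and 43.1% and 42.3% in PA. Its neighbour at chr2:148025504-148025916 was called in WT 1, WT 2 and PA 2 (46.3%, 48.5% and 39.7%) and not in PA 1. The 2 beyond it were called in WT 1 and PA 2 and in PA 2 alone. PA 1 thus had 1 of these 4 regions and PA 2 all of them, so the PA libraries differed here more than the genotypes.

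Foxa3 had a peak close to its start in all 4 libraries, but this region (chr7:19024069-19024544) lay 530 bp upstream and overlapped the start of Sympk, which encodes a scaffold protein of mRNA 3′ end formation and is transcribed the other way. The peaks covered none of the 300 bases of the Foxa3 start sequence in any library. Their places were 20.4% (WT 1), 10.5% (WT 2), 12.1% (PA 1) and 8.22% (PA 2). To which of the genes the region belongs cannot be told apart here, and by overlap alone Foxa3 had a start peak in 0 libraries. A region 2337 bp past the 3′ end of Foxa3 (chr7:19010435-19010946) was called high in 3 lists, at 12.8% in WT 1, 19.5% in WT 2 and 20.0% in PA 2, and not in PA 1. The remaining region, at the start of Mypop, was in all 4 libraries.

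**Figure D4:**
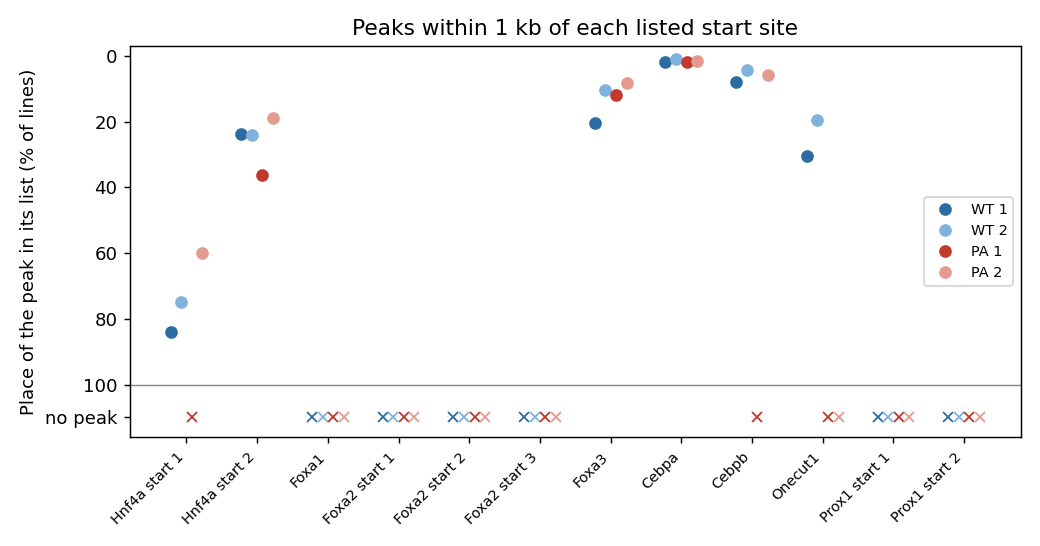
Place of the peak within 1 kb of each listed start site in the list of each library, as a percentage of its lines (0 is the top of the list), with crosses where no peak was called. The 4 Cebpa points lie between 1.09% and 1.92%, the Cebpb points between 4.47% and 7.91% with a cross for PA 1, and Onecut1 has points for WT 1 and WT 2 and crosses for both PA libraries.

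The start of Cebpa carried the peak with the smallest mean place of all 43 regions. This region (chr7:35118940-35119430) stood near the top of every list, at 1.92% (WT 1), 1.09% (WT 2), 1.79% (PA 1) and 1.47% (PA 2). Measured to the start in the direction of transcription, the peak centres were at -153 bp (WT 1), -104 bp (WT 2), -62 bp (PA 1) and -104 bp (PA 2). All 4 libraries thus placed the peak centre just before the start, and in each the peak itself overlapped the start. Downstream of the gene, regions 21917 bp (chr7:35143845-35144271), 28105 bp and 45969 bp (chr7:35167897-35168349) from it were called in all 4 libraries. The first stood at 4.76%, 5.96%, 9.51% and 3.80%, and the third at 7.80%, 5.30%, 16.8% and 5.78%, in the order WT 1, WT 2, PA 1, PA 2. Beside the third a further region (chr7:35169229-35169685) was called in WT 1, WT 2 and PA 2, at 14.6%, 8.50% and 12.1%, and not in PA 1.

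The WT-only region of Cebpa lay between these and the gene, 12692 bp from its end, over the noncoding genes Gm35665 and Gm35724 (chr7:35134620-35135029). It stood at 46.0% in WT 1 and 34.7% in WT 2, number 101 by mean place among the 768 WT-only regions of the series. Upstream of Cebpa, 1 region was called in all 4 libraries and 2 in PA 2 with a single WT library. In the whole Cebpa window WT 1, WT 2 and PA 2 called 8 regions each and PA 1 called 5.

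Cebpb, whose product rises in the acute phase response and in liver regeneration, had a peak over its start (chr2:167688770-167689210) in WT 1, WT 2 and PA 2, at 7.91%, 4.47% and 5.75% of those lists. PA 1 had no peak within 27021 bp of the start. The peak centres lay 55, 96 and 56 bp past the start in WT 1, WT 2 and PA 2, and covered 195, 154 and 194 of the 300 bases printed above. A region so high in 3 lists was seldom missing from the other. Of 2004 regions in the first 10% of the WT 1, WT 2 and PA 2 lists, 20 (0.998%) were missing in PA 1, and the corresponding counts were 3 of 1993 for WT 1, 5 of 1918 for WT 2 and 5 of 1870 for PA 2. The Cebpb start is 1 of these 20, and PA 2, the other PA library, had the peak. Of genes whose first start sequence had at least 75% G and C, PA 1 called 73.1% and the other libraries 74.5% to 75.4%. The part of base composition in the missing Cebpb call was not tested. The other region of the window, at an end of Tmem189, was called in all 4 libraries.

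Onecut1 was the only one of the 8 genes whose start was called in both libraries of 1 genotype and in none of the other. The region (chr9:74861613-74862060) covered all 300 bases of the printed sequence in WT 1 and in WT 2, with centres at -108 and -60 bp from the start. It stood at 30.4% in WT 1 and 19.4% in WT 2. The nearest peak to the start was 4785 bp away in PA 1 and 4724 bp in PA 2. By mean place it was number 34 of the 768 WT-only regions and number 9 of the 74 WT-only regions that overlap a listed start of a protein-coding gene. PA-only regions over such a start numbered 100. Among genes whose first start sequence had 65% to 75% G and C, as Onecut1 has, a start peak was called at 73.9% (WT 1), 74.6% (WT 2), 74% (PA 1) and 74.7% (PA 2). The part of base composition in the calls at Onecut1 was not tested. This difference was not tested.

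The remaining Onecut1 calls did not follow the start. A region 4723 bp inside the gene (chr9:74866644-74867105), over the noncoding gene Gm38678, was called in both PA libraries, at 21.5% and 11.7%, and in WT 1, at 35.0%, but not in WT 2. A region 7089 bp past the gene had the same calls, at 95.1% in WT 1, 90.5% in PA 1 and 67.1% in PA 2. Between 21698 and 49218 bp past the gene stood 5 regions called in all 4 libraries. The one highest by mean place (chr9:74923217-74923662) stood at 36.4%, 25.5%, 33.5% and 23.8% in WT 1, WT 2, PA 1 and PA 2. The outer 4 of these 5 are nearer to Fam214a than to Onecut1. WT 1 called 8 of the 9 regions, WT 2 6, PA 1 7 and PA 2 8, so over the whole window the genotypes overlapped.

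Prox1, which also marks lymphatic endothelium, had no peak near either listed start, and the nearest was 30877 bp away, in WT 1. The region of the window highest by mean place lay 10550 bp past the gene (chr1:190106675-190107485), at 27.3% and 25.8% in WT 1 and WT 2 and 34.0% and 16.2% in PA 1 and PA 2. At 811 bp it was the longest region of the 43, and its peak centres were spread over 411 bp. A region 33581 bp upstream, over the antisense gene Prox1os (chr1:190204408-190205053), was also in all 4 libraries, at 49.7%, 33.4%, 30.1% and 17.4%. A region inside the gene (chr1:190125300-190125756) was called in WT 1, WT 2 and PA 2, at 60.4%, 52.3% and 39.2%, and was missing in PA 1.

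Where a region was called in all 4 libraries, its peak centres mostly lay close together. The joining of overlapping or touching peaks partly ensures this. The centres of the peaks were spread over a median of 46 bp (6 to 411 bp, 25 regions), against 43 bp over the 17581 such regions of the series. Their median place was 33.8% (WT 1), 29.3% (WT 2), 33.4% (PA 1) and 22.4% (PA 2), against 36.7%, 36.9%, 35.9% and 32.4% for all regions in 4 libraries.

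Among 25 other factor genes of the hepatocyte network, 15 had a listed start. A start peak was called in all 4 libraries at 10 of them: Hhex, Nr5a2, Ppara, Nr1i3, Cebpg, Foxo1, Klf15, Atf5, Creb3l3 and Nr2f6. Over all genes with a listed start the share was 44.2%. No library called a start peak at Rxra and Nfia, as at 46% of all genes with a listed start. At Nr1i2 (the pregnane X receptor) it was called in WT 1, PA 1 and PA 2. At Nr0b2 (SHP, a repressor of bile acid synthesis) it was called in WT 2 and PA 1. Nr1h4 (the bile acid receptor FXR) had it in PA 2 alone. None of these 15 starts was called in both libraries of a genotype and in neither of the other. The median number of regions called in all 4 libraries in the window was 3, against 2 for the 8 genes, and 6 network genes stood at that same number of 2: Atf5, Cebpd, Cebpg, Hhex, Nr1i2 and Nr2f6. Genotype-restricted regions in these windows were 1 of each kind at Gata4, a PA-only region inside Nfia and a WT-only region inside Nfib. The windows of Gata4, Nfia and Nfib held 10, 27 and 23 regions. Of all regions near protein-coding genes 3.24% were PA-only and 1.92% WT-only. Whether such regions set these genes apart was not tested.

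Markers of the tissue and of other cells were called unevenly. Of 7 hepatocyte marker genes with a listed start, Serpina1c and Apob had a start peak in all 4 libraries, Alb in PA 1 alone and Apoa1 in none, while Tat and Fgb lacked it in PA 1 and Ahsg in WT 1. A start peak in all 4 libraries was found at 2 of 4 macrophage factor genes (Irf8 and Runx1), 2 of 5 of lymphocytes (Tcf7 and Gata3), 1 of 2 of bile duct cells (Elf3), 0 of 3 of endothelium, 0 of 5 of stellate cells and fibroblasts and 0 of 3 of blood cells. Over all genes with a listed start the share was 44.2%. The lists held 6, 6, 5, 7, 6 and 4 genes in that order, and those without a listed start are left out of these counts. Among the genes of these other cells, Id3, Lhx2 and Prrx1 lacked the start peak in PA 1 alone, as Cebpb did, Twist1 lacked it in WT 1 alone, and Erg and Ikzf1 had it in PA 1 alone. Over all genes with a listed start 1.19% lacked it in PA 1 alone and 0.978% in WT 1 alone. In the windows, PA-only and WT-only regions numbered 3 and 3 at the 7 endothelial genes and 3 and 1 at the 9 hepatocyte markers. The endothelial ones were 2 WT-only of 3 regions at Sox17, 1 WT-only of 2 at Sox18, and 1 PA-only each of 6 at Erg, 3 at Tal1 and 4 at Sox7. Those at the markers were 1 PA-only each of 10 regions at Apoa1 and 8 at Fgb, and 1 of each kind of 8 at Ahsg. The remaining lists of this paragraph had 0 of either kind. Over all regions near protein-coding genes 3.24% were PA-only and 1.92% WT-only, and the shares for these lists were not computed. The part of other cell types in the calls at the 8 loci was not tested, nor can these lists show whether the libraries carry the labelled Pcca genotype.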

How the data were processed

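The authors deposited, for each of the 4 ATAC-seq libraries, a list of peak positions (chromosome, start, end) without scores. The build was GRCm38 (mm10), and bedtools 2.31.0, HOMER 4.10, R 4.1.2, SAMtools 1.17, Bowtie2 2.5.1 and cutadapt 3.5 had been used, per the submitters' processing notes. The sources used here do not give the caller, its threshold or the read filters. Groups and replicate numbers came from sample titles.

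Peaks sharing at least 1 bp, or touching, were merged, and a region counted as called in a library with a peak in it. Coordinates are 1-based. Genes, starts and start sequences are those of RefSeq, GRCm38.p6. A start was called with a peak within 1 kb. Place in the list is the line number over the number of lines. Python 3.11.15, SciPy 1.17.1 and Matplotlib 3.10.9 were used, and the merging and window steps were tested on simulated data. Intervals are Clopper-Pearson 95%, and the limit for a count of 0 is 3 counts; both cover the counting of regions only.

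The 8 genes, the gene lists and the motifs were chosen with earlier results of these data known, and TATAAA was added after the sequences were seen. A planned list gene and a planned motif are not reported here. Named were all 8 genes, every genotype-restricted region of their windows, the region nearest each start and the highest region in all 4 libraries, network genes with a restricted region or without a start peak in all 4 libraries, and those nearest to the median of the 8 genes (3 were planned, with ties by symbol; all 6 tied genes are given). The genotypes were compared by counts and values per library, with the alternatives given at the end.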

Additional observations from a re-analysis of the deposited data

How the results depend on the processing

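The counts were recomputed with other merging, windows, attribution and list lengths and without each library. Regions called in all 4 libraries fell from 25 to 14 with windows of 25 kb, 6 with windows of 10 kb and 14 when only regions nearest to the gene were kept, since fewer regions were eligible, and WT-only regions from 2 to 1 with windows of 10 kb. Without 1 library, regions in all remaining libraries numbered 25 to 31, PA-only regions 0 to 3, WT-only regions 2 to 8, the PA minus WT difference in peaks -9.5 to 2.5 and genes with a start peak in all remaining libraries 3 to 4. PA-only regions stayed at 0 under the merging with 200 bp overlap, both smaller windows, the nearest-gene attribution, lists cut to 25683 lines and the first 50% of each list. Of 32 values of start calls at single genes, added after seeing the data, 31 were unchanged, and Foxa3 went from 4 libraries to 0 when the peak had to overlap the start. Regions missing in PA 1 alone numbered 4 to 7 under the changes of merging, window, attribution and list length. They were not recounted with a library left out. No paired analysis was possible because no test was run on these counts and the labels state no pairing of WT and PA replicates beyond their numbers. Depth is unknown, so a missing call cannot be set against it.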
